A study of Mus musculus with 24 samples.

Results

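The 3 genes of the myocyte enhancer factor 2 family (Mef2a, Mef2c and Mef2d) and the 4 genes of the class IIa histone deacetylases (Hdac4, Hdac5, Hdac7 and Hdac9) were followed through daily optical exercise of cultured mouse muscle. They were chosen by gene symbol, and all 7 were found among the 56941 genes listed. MEF2 proteins are transcription factors that bind an A/T-rich element in the control regions of many muscle genes, and muscle activity is a known input to them. Class IIa histone deacetylases dock on MEF2 and hold its target genes down. When calcium-dependent and other kinases phosphorylate these deacetylases, 14-3-3 proteins bind them and carry them out of the nucleus, which leaves MEF2 free to act.

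All cultures were C2C12, an established mouse myoblast line, of genotype ChR2::tdTomato, so that Control and stimulated cells alike carried the light-gated channel ChR2(H134R) fused to the red fluorescent protein tdTomato. The cells grew on fibrin gels and were differentiated in horse serum with IGF-1. Blue light was given for 60 min each day at 1, 4 or 10 Hz from the first day in differentiation medium, Control cultures were not stimulated, and RNA was taken on day 16. Each of the 4 groups held 6 libraries, all from this single line, and nothing in the labels says whether the replicates came from separate expansions of it, so p-values measure the spread between these libraries.

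The libraries held 8052369 to 18159144 estimated counts. No pair of libraries in a group was identical within sampling noise. The mitochondrial share of the counts was 1.37% to 2.72% in Control, and it lay outside that range in 5 libraries, namely 1 Hz replicates 4 and 6 and 4 Hz replicates 1, 3 and 6. According to the labels, low-input samples were prepared by ribodepletion in place of poly(A) selection, but which samples these were is not given. Myotube markers were abundant in every group, and the summed CPM of 7 of them had a median of 9871 in Control and of 10202, 11317 and 9066 at 1, 4 and 10 Hz. Acta1 was the largest part of this sum, with a mean of 6049 CPM in Control. Within the 7, Myog was lower at 1 and 4 Hz (log2 changes -1.34 and -1.47) and Mylpf higher at 4 Hz (0.57). The summed CPM of 6 reserve-cell and myoblast markers ran from 441 to 504 in Control, 500 to 588 at 1 Hz, 510 to 613 at 4 Hz and 476 to 514 at 10 Hz. Most of this sum was Sdc4, with a mean of 384 CPM in Control, followed by Cd34 with 60.2. Pax7 and Heyl, at 6.06 and 2.21 CPM in Control, hardly weigh in it. Of the 6 markers, Myf5, Cd34 and Spry1 were higher and Pax7 and Heyl lower than Control at both 1 and 4 Hz, and Sdc4 was higher at 4 Hz. Among 5 cycling-cell markers, whose summed CPM stayed between 16.7 and 44.0 in all libraries, Cdk1 was higher at 1 and 4 Hz, and Mki67 and Ccnb1 were lower at 4 Hz. The 8 markers of other lineages summed to 39.8 to 73.2 CPM, nearly all of it Cd68, and the other 7 did not pass the filter on low counts. The part of cell composition in the results below was not tested. In bulk libraries such as these, fewer cells of a type and less RNA per cell cannot be told apart.

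The members lie on 7 different chromosomes (GRCm39). Mef2a is at chr7:66880911-67022606 on the minus strand, Mef2c at chr13:83652064-83815555 on the plus strand and Mef2d at chr3:88049185-88079398 on the plus strand. Hdac4 is at chr1:91855937-92123421, Hdac5 at chr11:102085245-102121072, Hdac7 at chr15:97687372-97742383 and Hdac9 at chr12:34097579-34967094, each on the minus strand. Every member overlaps at least 1 gene on the opposite strand, among them Lysmd4 for Mef2a, G6pc3 for Hdac5 and Slc48a1 for Hdac7. Whether the counting used strand is not stated, so the levels of these genes carry that limit.

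The MEF2 element itself was looked for in the RefSeq promoter windows of all 7 members (250 bases before to 50 after the start, 13 windows, found again letter for letter in GRCm39). The consensus reads the same on both strands. Of the members, 2 held a match, Mef2a and Hdac5, and these sequences are shown because they hold the letters of that consensus; a match is not a measured binding site. They are given 5′ to 3′ on the minus strand of the genome, with the 10 bases of the match in capitals and 10 bases on each side.
Mef2a: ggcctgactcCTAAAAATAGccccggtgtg
Hdac5: gggtctgagcCTATTTTTAGctcggggtcg
The Mef2a stretch is chr7:67022589-67022618, where the match runs from position -2 to position 7 counted from the first transcribed base as 0. The Hdac5 stretch is chr11:102120999-102121028, with the match at positions -20 to -11. Across the table, 3.70% of 27025 genes held the element in at least 1 window, so a match in 2 of 7 is a description of these letters only.

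Before stimulation effects are considered, the levels per length in Control give the order of the family. Mef2a was the most abundant MEF2 transcript, at 94.9 ± 4.79 TPM (SD, n = 6), above both relatives in 6 of 6 Control libraries. Mef2d stood at 72.6 ± 6.38 TPM and Mef2c at 59.4 ± 9.34 TPM, and Mef2c exceeded Mef2d in 1 of 6 libraries. Among the deacetylases, Hdac5 led with 48.2 ± 5.05 TPM in Control and was the highest of the 4 in all 24 libraries. Hdac7 (10.9 ± 1.49 TPM) and Hdac4 (9.51 ± 1.13 TPM) followed with overlapping ranges, and Hdac9 was lowest at 2.12 ± 0.289 TPM. The other MEF2 gene, Mef2b, was near the floor, with 9 to 25 estimated counts per library.

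Mef2a, a MEF2 factor with roles in muscle structure and regeneration, was lower in the cultures stimulated at 1 and 4 Hz. In those stimulated at 10 Hz it was near the Control level and not called different. In Control its libraries had 297 CPM (counts scaled to library size) at the lowest, 307 at the median and 320 at the highest. At 1 Hz the corresponding values were 178, 206 and 238 CPM. At 4 Hz they were 146, 195 and 213 CPM, and no library of either group reached the lowest Control library. At 10 Hz the values were 258, 303 and 324 CPM, above every 1 Hz and 4 Hz library (a separation seen for 7.7% and 18.9% of all genes). Of the 6 libraries at 10 Hz, 3 lay below all of Control and 1 above all of it. On the log2 scale the change was -0.57 at 1 Hz (SE 0.086, adjusted p = 1.48e-05, edgeR) and -0.69 at 4 Hz (SE 0.086, adjusted p = 5.29e-07), that is 0.674 and 0.618 times the Control level. At 10 Hz it was -0.04, with a 95% interval of -0.22 to 0.13 and an adjusted p of 0.968. Mef2a was the only member whose 1 Hz libraries were all on one side of Control, where 14.1% of all 13315 genes tested had such a separation. At 4 Hz 27.6% of all genes had it, Mef2a and Hdac5 among them. Its spread also differed between groups, with a coefficient of variation of 3.24% in Control, 12.2% at 1 Hz, 13.7% at 4 Hz and 8.38% at 10 Hz. Its 2 lowest 1 Hz values, 181 and 178 CPM, were those of replicates 4 and 6, which also had a mitochondrial share above the Control range, and without the libraries of unusual share the coefficient was 7.85% at 1 Hz (n = 4) and 19.5% at 4 Hz (n = 3).

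**Figure D1:**
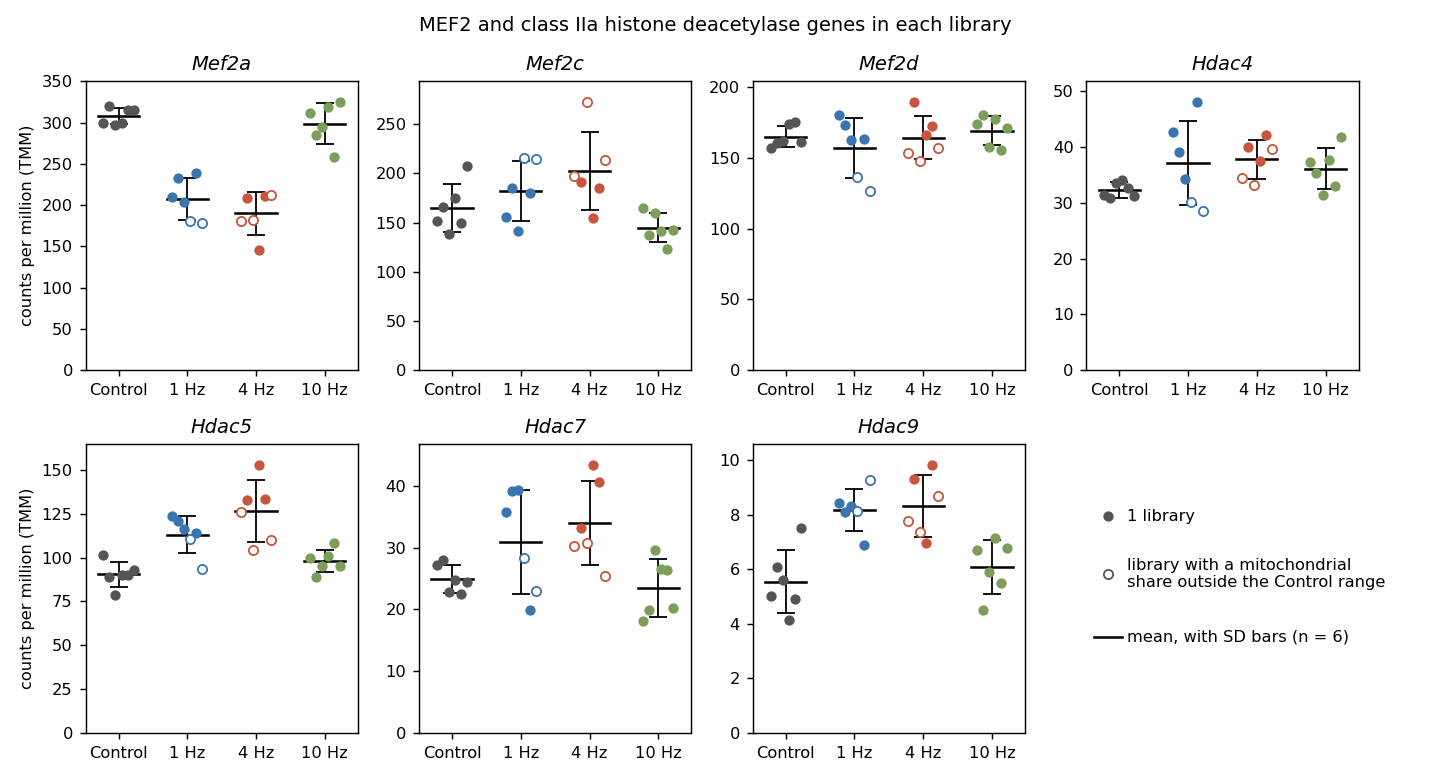
TMM-scaled CPM of each member in each library, by group, with the mean and SD of 6 libraries; open points are the 5 libraries with a mitochondrial share outside the Control range. Mef2a at 1 and 4 Hz lies between 146 and 238 CPM, below all Control libraries (297 to 320 CPM), while the 10 Hz libraries overlap Control for every member. Such a separation from Control was found for 14.1% of all genes at 1 Hz and 27.6% at 4 Hz.

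Mef2c, the factor best known for driving sarcomere genes in differentiated muscle, differed from Control in the other direction at 4 Hz, and by less. Its Control libraries spanned 139 to 207 CPM with a median of 158. At 1 Hz the range was 141 to 216 CPM (median 182), at 4 Hz 155 to 272 CPM (median 194) and at 10 Hz 123 to 164 CPM (median 142). All 4 groups overlapped in part. The log2 change at 1 Hz was 0.15 (adjusted p = 0.345), and at 4 Hz it was 0.30 (SE 0.12), which passed the threshold with an adjusted p of 0.0387. The 4 highest of the 24 Mef2c values belonged to 1 Hz replicates 4 and 6 and 4 Hz replicates 3 and 6, which were also the 4 libraries with a mitochondrial share above the Control range (3.97%, 4.87%, 8.90% and 4.34%). Without the 5 libraries outside that range, the Mef2c change was 0.00 at 1 Hz and 0.07 at 4 Hz, and the 4 Hz call was lost. Leaving out any of Control replicates 1 to 5 or 4 Hz replicates 1, 3, 5 and 6 also ended it, with log2 changes of 0.16 to 0.30. It was lost with DESeq2 too, and in 17 of the 23 alternatives run, over which its adjusted p ran from 0.0118 to 0.783.

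Mef2d, the family member with a muscle-specific splice form that escapes repression, did not pass the test on counts in any comparison. Its Control libraries had 157 to 175 CPM, and those at 1, 4 and 10 Hz had 127 to 180, 148 to 189 and 155 to 180 CPM, so each stimulated group enclosed or overlapped the Control range. The log2 changes were -0.07 at 1 Hz (95% interval -0.23 to 0.09), -0.01 at 4 Hz (-0.16 to 0.15) and 0.04 at 10 Hz (-0.12 to 0.20). The 2 lowest Mef2d values at 1 Hz were those of replicates 4 and 6, and without the libraries of unusual mitochondrial share the change there was 0.04.

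Hdac5, the most abundant of the deacetylases here and one of those exported from the nucleus on kinase signalling, was higher at 1 and 4 Hz. Control libraries had 78.9 CPM at the lowest, 90.1 at the median and 102 at the highest. At 1 Hz the values were 93.6, 115 and 124 CPM, and 5 of 6 libraries lay above all of Control. At 4 Hz they were 104, 129 and 153 CPM, with 6 of 6 above all of Control, a separation found for 27.6% of all genes in that comparison. At 10 Hz the values were 89.2, 97.6 and 108 CPM, mostly within the Control range. The log2 change was 0.32 at 1 Hz (SE 0.083, adjusted p = 0.00387), 0.49 at 4 Hz (SE 0.083, adjusted p = 3.80e-05) and 0.12 at 10 Hz (95% interval -0.05 to 0.29).

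Hdac9, which gives rise to a short form without the catalytic domain and is itself a known MEF2 target, was the least abundant member and had the largest rise on the count scale. Its libraries had 4.15 to 7.51 CPM in Control (median 5.31). They had 6.88 to 9.27 CPM at 1 Hz (median 8.20), 6.96 to 9.81 CPM at 4 Hz (median 8.21) and 4.52 to 7.15 CPM at 10 Hz (median 6.29). Only the highest Control library overlapped the 1 and 4 Hz libraries, of which 5 of 6 at 1 Hz and 4 of 6 at 4 Hz lay above it. The log2 change was 0.57 at 1 Hz (SE 0.13, adjusted p = 0.00146) and 0.59 at 4 Hz (SE 0.13, adjusted p = 6.43e-04). These values rest on 38 to 133 estimated counts per library, the lowest depth of the 7.

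Hdac7 and Hdac4 gave smaller or less even differences. Hdac7, better known from endothelium and thymus, had 22.6 to 28.1 CPM in Control, 19.8 to 39.4 at 1 Hz, 25.4 to 43.4 at 4 Hz and 18.1 to 29.6 at 10 Hz. Its 1 Hz libraries lay on both sides of the Control range, and without 1 Hz replicate 5, the lowest, the 1 Hz change passed at 0.40. Hdac7 was 0.44 higher at 4 Hz on the log2 scale (SE 0.16, adjusted p = 0.0218), and the change of 0.30 at 1 Hz had an adjusted p of 0.133. Leaving out replicate 3 or 5 of Control, or replicate 4 or 5 of 4 Hz, ended the 4 Hz call, with log2 changes between 0.32 and 0.40. Hdac4, the deacetylase induced in denervated muscle, had 30.8 to 34.2 CPM in Control, 28.5 to 48.0 at 1 Hz, 33.1 to 42.2 at 4 Hz and 31.4 to 41.7 at 10 Hz. At 4 Hz, 5 of 6 libraries were above all of Control. The Hdac4 changes at 1, 4 and 10 Hz were 0.20, 0.23 and 0.16 and did not pass, with adjusted p-values of 0.125, 0.0612 and 0.746. Without the 5 libraries of unusual mitochondrial share Hdac4 did pass, at 0.34 for 1 Hz and 0.27 for 4 Hz.

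**Figure D2:**
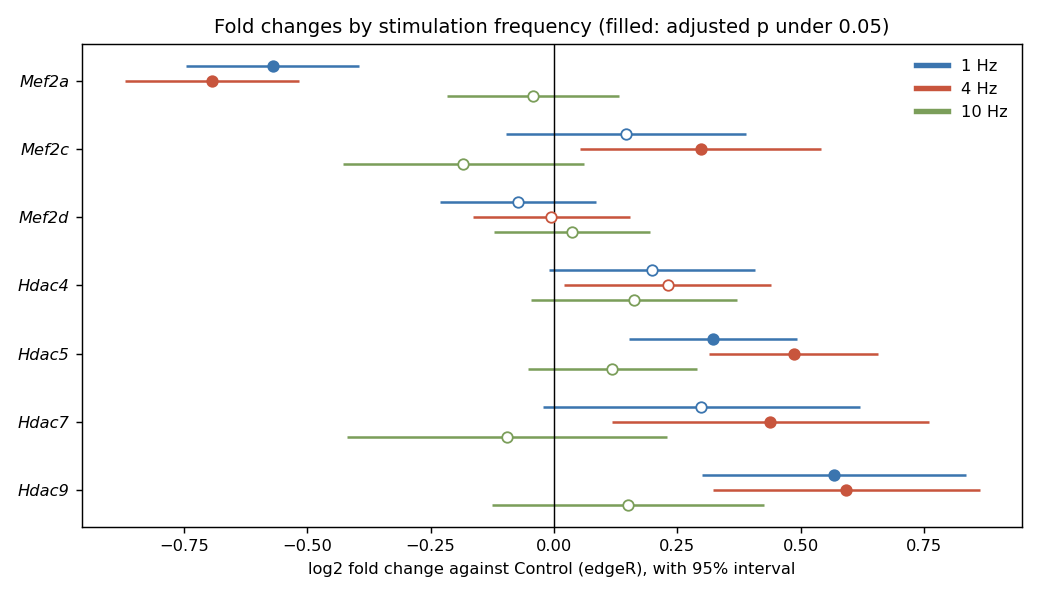
Log2 fold change of each member against Control at 1, 4 and 10 Hz (edgeR on estimated counts), with 95% intervals; filled points have an adjusted p under 0.05. Mef2a is filled to the left of 0 at 1 and 4 Hz (-0.57 and -0.69), Hdac5 and Hdac9 to the right, and no 10 Hz point is filled.

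Counted over the members, 3 of 7 passed at an adjusted p under 0.05 at 1 Hz, 1 lower and 2 higher, where 37.3% of all genes passed (18.1% lower and 19.2% higher). At 4 Hz 5 of 7 passed, 1 lower and 4 higher, against 51.4% of all genes (23.9% lower and 27.5% higher), and 3 were left without replicate 3 or 5 of Control or replicate 5 of 4 Hz. With 7 genes these counts are near the background and are not read as a property of the family. At 10 Hz 0 of 7 passed, with log2 changes of -0.18 to 0.16, where 0.0376% of all genes (5 genes, 0.015% higher and 0.0225% lower) passed with edgeR and 1074 had an unadjusted p under 0.05, none of them a member. DESeq2 likewise called 0 members at 10 Hz. The 4 deacetylases had a median log2 change of 0.31 at 1 Hz and 0.46 at 4 Hz, beside 0.04 and 0.06 over all genes, and of 0.01 and 0.09 on unscaled log2(TPM + 1), where all genes had -0.14 and -0.21. The 3 MEF2 genes had medians of -0.07 and -0.01, and of -0.44 at both frequencies on unscaled log2(TPM + 1). At 10 Hz no member separated from Control, as 1.64% of all genes did. When an absolute log2 change over 0.5 was required as well, Mef2a and Hdac9 passed at 1 Hz (14.9% of all genes) and again at 4 Hz (25.1%). Without the 5 libraries of unusual mitochondrial share, the members that passed numbered 4 at 1 Hz, 5 at 4 Hz and 0 at 10 Hz. Of the 13576 genes tested in that fit, 1999 were higher and 2105 lower at 1 Hz. The numbers were 3020 and 3234 at 4 Hz, and 3 and 14 at 10 Hz.

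Stimulated groups were then compared with each other. Between 4 and 1 Hz 0 of 7 members passed, as did 0% of all genes with edgeR (1465 had an unadjusted p under 0.05, no member among them, and DESeq2 called 0 members). The widest of these differences was 0.16 for Hdac5 (95% interval -0.01 to 0.33), and that of Mef2a was -0.12 (-0.30 to 0.05). Against 1 Hz, the 10 Hz cultures passed for 3 of 7 members, beside 27.9% of all genes (14.8% higher and 13.1% lower). Mef2a was 0.53 higher at 10 Hz (adjusted p = 7.36e-05), Mef2c 0.33 lower (log2 change -0.33, adjusted p = 0.0406) and Hdac9 lower by 0.42 (log2 change -0.42, adjusted p = 0.0207). Leaving out 10 Hz replicate 2 left only Mef2a among them, the Hdac9 call also ended without 1 Hz replicate 6 (-0.36), and the Mef2c call without 1 Hz replicate 2, 4 or 6 or without 10 Hz replicate 2, 4, 5 or 6 (-0.33 to -0.26). Hdac5 was called without 1 Hz replicate 6 (-0.24), and Hdac7 without 1 Hz replicate 5 or 6 or without 10 Hz replicate 3 (-0.49 to -0.45). Against 4 Hz, 5 of 7 members passed at 10 Hz, beside 46.3% of all genes (21.9% higher and 24.4% lower). Mef2a was 0.65 higher (adjusted p = 2.06e-06), and the log2 changes of Mef2c (-0.48), Hdac5 (-0.37), Hdac7 (-0.53) and Hdac9 (-0.44) had adjusted p-values of 0.00215, 0.00102, 0.00817 and 0.00871. Without the 5 libraries of unusual mitochondrial share, the Mef2c and Hdac9 calls against 1 Hz ended (-0.20, adjusted p = 0.198, and -0.37, adjusted p = 0.0973), those of Hdac5 (-0.28) and Hdac7 (-0.52) were gained, and the Mef2c call against 4 Hz ended (-0.27, adjusted p = 0.0637). On unscaled log2(TPM + 1) the 10 Hz against 4 Hz calls of Mef2c (-0.16), Hdac7 (-0.25) and Hdac9 (-0.11) were lost and Hdac5 turned to 0.01, and against 1 Hz Mef2c (-0.08) and Hdac9 (-0.15) were lost. Mef2d gained a call on that scale for 10 against 4 Hz (0.42, adjusted p = 0.0454, limma), where the median of all genes was 0.20. In 6 of 6 libraries at 10 Hz Mef2a lay above all 1 Hz and all 4 Hz libraries, a separation seen for 7.7% and 18.9% of all genes, while no member separated 4 from 1 Hz (0.376%). With an absolute log2 change over 0.5 required, the 10 Hz cultures differed for Mef2a from 1 Hz (10.8% of all genes) and for Mef2a and Hdac7 from 4 Hz (21.2%). These comparisons share libraries with those against Control and are not independent of them.

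Seen as shares of the summed TPM of the 3 genes, the make-up of the MEF2 family differed by group. Mef2a held 41.9% ± 1.94 (SD, n = 6) of the sum in Control and 41.6% ± 2.05 at 10 Hz, but 32.3% ± 3.74 at 1 Hz and 28.6% ± 3.48 at 4 Hz. The highest share at 1 Hz (35.0%) and at 4 Hz (32.9%) stayed under the lowest in Control (39.4%) and at 10 Hz (39.2%). The share of Mef2c was 26.1% in Control, 35.4% at 1 Hz, 38.2% at 4 Hz and 25.3% at 10 Hz, and the share of Mef2d was 32.0% to 33.2% on average in every group. The TPM of Mef2c itself averaged 59.4, 58.1, 61.1 and 54.8 in that order, while the TPM of Mef2d averaged 72.6, 55.4, 53.9 and 72.5 and that of Mef2a 94.9, 55.3, 46.6 and 90.9. At 1 Hz the Mef2c share was 46.1% and 45.5% in replicates 4 and 6, the libraries of unusual mitochondrial share, and 27.0% to 32.7% in the other 4. Without the libraries of unusual share, the mean Mef2c share was 30.2% at 1 Hz and 36.3% at 4 Hz. The order of the family changed with it. At 4 Hz Mef2a exceeded Mef2c in 1 of 6 libraries and Mef2d in 0 of 6, whereas at 10 Hz it exceeded both in 6 of 6, as in Control. At 1 Hz it was above Mef2c in 4 and above Mef2d in 3 of 6. The summed TPM of the MEF2 genes was 226.9 in Control and 168.8, 161.6 and 218.1 at 1, 4 and 10 Hz. Of the summed TPM of the deacetylases, Hdac5 held 67.6% to 68.9% on average in every group and Hdac9 between 3.02% and 3.87%. Hdac7 held 15.5%, 15.1%, 15.4% and 13.2% in Control and at 1, 4 and 10 Hz, and Hdac4 13.5%, 12.4%, 13.6% and 14.8%. Hdac4 exceeded Hdac7 in 4 of 6 libraries at 10 Hz and in 1 of 6 in each other group. The summed TPM of the deacetylases was 70.7 in Control and 74.1, 76.9 and 74.9 with rising frequency. On this unscaled TPM it moved less from Control at 1 and 4 Hz than the MEF2 sum did, a comparison that depends on how libraries are scaled. Divided by the MEF2 sum, the deacetylase sum averaged 0.314, 0.436, 0.476 and 0.346 in the same order. The groups overlapped in this ratio, with 0.27 to 0.39 in Control, 0.35 to 0.51 at 1 Hz, 0.35 to 0.59 at 4 Hz and 0.31 to 0.40 at 10 Hz. The shares and this ratio compare genes within a library and do not depend on how libraries are scaled. They use the TPM, which is per length. The sums and mean TPM do depend on scaling. On unscaled log2(TPM + 1) the median of all genes against Control was itself -0.14 for 1 Hz and -0.21 for 4 Hz. With edgeR on counts, Mef2a was the only MEF2 gene called lower in these comparisons.

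**Figure D3:**
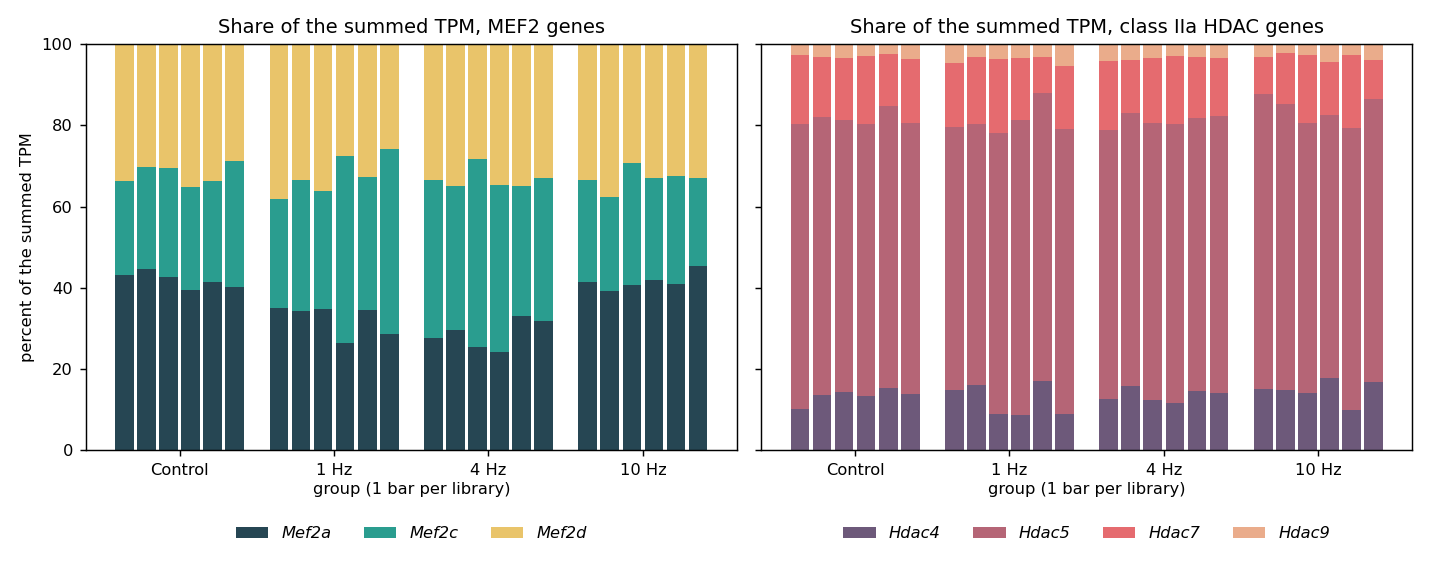
Make-up of the summed TPM of the 3 MEF2 genes (left) and the 4 class IIa deacetylase genes (right), in percent, with 1 bar per library. The Mef2a share is 39.2% or more in all Control and 10 Hz libraries and 35.0% or less in all 1 and 4 Hz libraries, while Hdac5 is the widest part of every bar on the right.

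The scale on which libraries were compared changed the calls of the deacetylases but not that of Mef2a. On log2(TPM + 1) with limma, the median of all genes itself moved by -0.14 at 1 Hz and -0.21 at 4 Hz, and the calls over all genes became 481 higher and 2933 lower at 1 Hz (edgeR on counts 2554 and 2408) and 782 higher and 4818 lower at 4 Hz (3664 and 3178). Mef2a remained lower, at -0.82 and -1.04. Hdac5 stood at 0.04 and 0.08, Hdac7 at -0.03 and 0.08 and Hdac9 at 0.27 and 0.23, none of which passed, and Mef2d was lower at 4 Hz, at -0.44 (adjusted p = 0.034, with a range of 0.034 to 0.959 over its alternatives). Relative to the median of all genes on that scale, the changes at 1 and 4 Hz were -0.68 and -0.83 for Mef2a, 0.18 and 0.29 for Hdac5, and 0.41 and 0.44 for Hdac9. When the TPM were also scaled by TMM, the median of all genes was 0.00 and 0.02. Mef2a was then -0.65 and -0.78, Hdac9 passed at both frequencies (0.38 and 0.41), Hdac5 passed at 4 Hz (0.34) but not at 1 Hz (0.20), and Hdac7 and Mef2c did not pass at either. Mef2a kept its direction and its call in all 23 alternatives at 1 Hz and in all 23 at 4 Hz, between -0.83 and -0.48 and between -1.05 and -0.66.

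**Figure D4:**
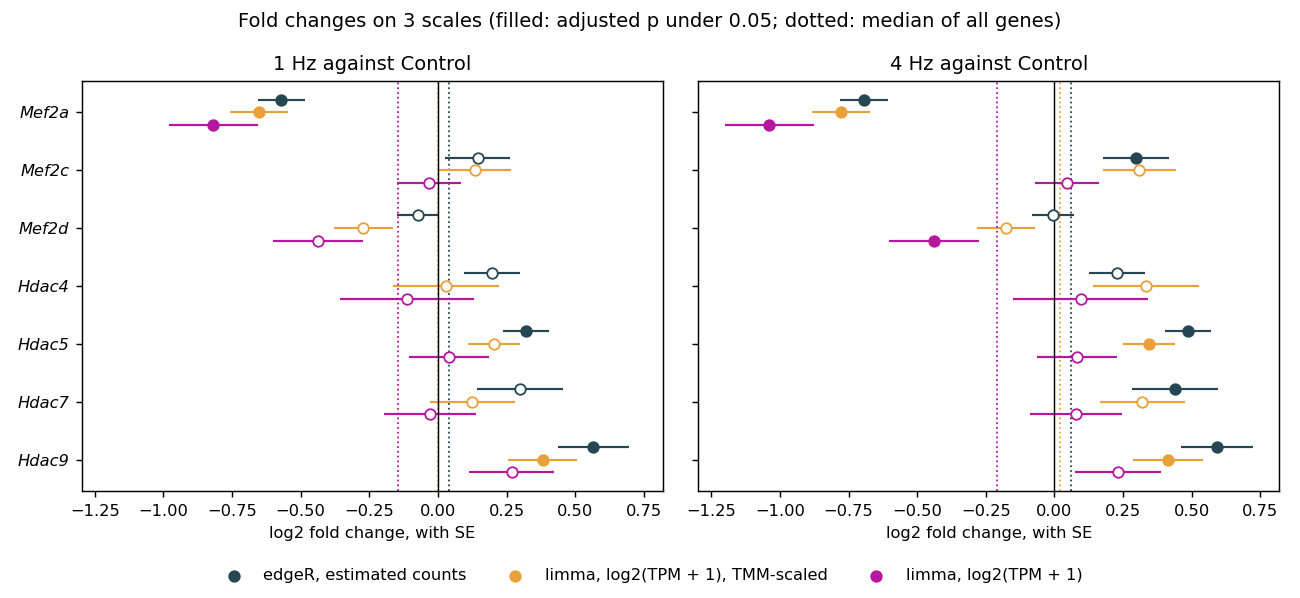
Log2 fold change with its SE for each member at 1 Hz (left) and 4 Hz (right) against Control on 3 scales, with the median of all genes on each scale as a dotted line; filled points have an adjusted p under 0.05. Mef2a is filled on all 3 scales, and Hdac5, Hdac7 and Hdac9 shift towards 0 on unscaled TPM, where the median of all genes is -0.14 and -0.21.

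The ratio of a gene's count to its TPM follows the length of the transcripts its reads were assigned to, and was used to look for a change in isoform mix, on a log2 scale centred on each library. Over 6 comparisons, 0 of 7 members passed with limma, and the shares of all genes that passed against Control were 0.0782%, 1.1% and 0% at 1, 4 and 10 Hz, and 0% for 4 against 1 Hz, 0.0609% for 10 against 1 Hz and 0.817% for 10 against 4 Hz. Mef2d came nearest. Its index was 0.46 to 0.68 in Control and 0.63 to 0.82 at 1 Hz, a difference of 0.16 (SE 0.046), with an unadjusted p of 0.0023 and an adjusted p of 0.197. At 4 Hz the difference was 0.13 (adjusted p = 0.214) and at 10 Hz 0.03. The remaining members differed from Control by -0.19 to 0.12, with standard errors of 0.023 to 0.14, Hdac4 and Hdac9 being the least precise.

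Among the proteins that act on the members, kinases that phosphorylate class IIa deacetylases were called in both directions, as were all genes. Of 17 listed, 15 were tested, and at 1 Hz 3 were higher and 4 lower, at 4 Hz 4 higher and 5 lower, and at 10 Hz 0 in either direction with edgeR. The shares over all genes were 19.2% higher and 18.1% lower at 1 Hz, and 27.5% and 23.9% at 4 Hz. The counts of this list are not read as a property of the kinases. At 10 Hz 2 were lower at an unadjusted p under 0.05, DESeq2 called 1 lower, and a fit of the 10 Hz and Control libraries alone called 2 lower. Their median log2 change was -0.06 at 1 Hz and -0.11 at 4 Hz. Prkd2, a protein kinase D, was 0.73 higher at 1 Hz and 0.90 higher at 4 Hz, and Camk1 0.33 and 0.49 higher. Camk2g was 0.21 higher at 1 Hz (adjusted p = 0.0118), but this sign turned to -0.07 on unscaled TPM. On the other side, Camk2a changed by -0.60 and -0.44, Mark3 by -0.32 and -0.39, and Prkaa1, a catalytic subunit of the energy sensor AMPK, by -0.30 and -0.57. On unscaled TPM the split of the list was 0 higher and 3 lower at 1 Hz and 1 higher and 8 lower at 4 Hz. Calls over all 13422 genes on that scale were 481 higher and 2933 lower at 1 Hz, and 782 and 4818 at 4 Hz.

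The 14-3-3 proteins hold phosphorylated deacetylases in the cytoplasm. All 7 of their genes were tested, and with edgeR 3 were lower at 1 Hz, 4 were lower at 4 Hz and 0 were higher at either. Over all genes 18.1% and 23.9% were lower in these comparisons. On unscaled TPM 4 and 7 of the list were lower, a scale on which most calls over all genes were lower too (2933 against 481 higher at 1 Hz and 4818 against 782 at 4 Hz). The median log2 change of the list was -0.24 and -0.44. Ywhag fell by 0.53 at 1 Hz and by 0.72 at 4 Hz on the log2 scale, and Ywhab by 0.44 and 0.68. Ywhae changed by 0.06 and 0.01 and did not pass.

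Kinases, phosphatases and coactivators that raise MEF2 activity numbered 14, all tested. With edgeR 1 was higher and 2 lower at 1 Hz, and 1 higher and 5 lower at 4 Hz, with medians of 0.02 and -0.03. Beside these, 19.2% of all genes were higher and 18.1% lower at 1 Hz, and 27.5% and 23.9% at 4 Hz. On unscaled TPM 0 were higher at either frequency, 2 were lower at 1 Hz and 8 at 4 Hz. Over all 13422 genes on that scale 481 were higher and 2933 lower at 1 Hz, and 782 and 4818 at 4 Hz. Mapk14, the p38 kinase that phosphorylates MEF2, was lower by 0.23 and 0.19 (log2 changes -0.23 and -0.19), and Maml1 changed by -0.38 and -0.31. Of the subunits of calcineurin, the calcium-dependent phosphatase, Ppp3r1 changed by -0.34 at 4 Hz, and Ppp3cc was 0.23 and 0.26 higher but stood at 0.00 and -0.08 on unscaled TPM and lost its call without any of Control replicates 2 to 6 or 1 Hz replicates 1, 2, 4 and 6 (0.13 to 0.25) at 1 Hz and without Control replicate 3 or 4 or 4 Hz replicate 4 (0.17 to 0.23) at 4 Hz. Among 10 partners of the deacetylases in repression, 1 was higher and 3 lower at 1 Hz, and 1 higher and 4 lower at 4 Hz, with medians of -0.10 and -0.18. The same shares of all genes stand beside these counts. On unscaled TPM 0 of the partners were higher, 4 were lower at 1 Hz and 8 at 4 Hz, on the scale where most calls over all genes were lower too. Gps2, a subunit of the co-repressor complex that holds Hdac3, changed by -0.40 and -0.38. Tbl1xr1 was 0.42 and 0.43 higher on counts and -0.09 and -0.08 on unscaled TPM. Hdac3, the enzyme that supplies activity to the class IIa complex, changed by 0.07 and 0.04 and did not pass.

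Of the 7 deacetylases tested outside class IIa, 1 was higher and 2 lower on counts at both 1 and 4 Hz, with medians of 0.00 and 0.04. Among all genes 19.2% were higher and 18.1% lower at 1 Hz, and 27.5% and 23.9% at 4 Hz. On unscaled TPM the split was 0 higher and 3 lower at 1 Hz and 0 higher and 4 lower at 4 Hz. Most calls over all 13422 genes on that scale were lower too (2933 against 481 higher at 1 Hz and 4818 against 782 at 4 Hz). On counts, the class I enzymes Hdac1 (-0.38 and -0.53) and Hdac2 (-0.22 and -0.35) were lower, and the class IV enzyme Hdac11 was 0.27 and 0.56 higher. The 1 Hz value of Hdac11 lost its call in 8 of the 12 fits that left out 1 library, among them those without Control replicate 2, 3, 4 or 5 and without 1 Hz replicate 1, 2, 4 or 6, with log2 changes of 0.20 to 0.31 over all 12.

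Genes known as MEF2 targets, of which 19 of 20 listed were tested, had 2 higher and 1 lower at 1 Hz and 9 higher and 1 lower at 4 Hz. Shares over all genes were 19.2% higher and 18.1% lower at 1 Hz, and 27.5% and 23.9% at 4 Hz. The medians of the list were 0.06 and 0.22, beside 0.04 and 0.06 over all genes. At 10 Hz 0 passed with edgeR or DESeq2, 1 was higher and 6 were lower at an unadjusted p under 0.05, and the median was -0.14. Of all 13315 genes 1074 had such a p at 10 Hz, and their median over all genes was 0.01. Nr4a1, an activity-induced nuclear receptor, rose by 1.48 at 1 Hz and 1.71 at 4 Hz on the log2 scale, from 24.3 ± 5.50 CPM in Control to 67.9 ± 19.7 and 79.7 ± 13.0 (SD, n = 6). Hdac9 was the other target that was higher at both frequencies. Myog, the myogenic regulator, moved against them, from 561 ± 56.7 CPM in Control to 221 ± 21.7 at 1 Hz and 203 ± 8.80 at 4 Hz, log2 changes of -1.34 and -1.47. The other targets that passed at 4 Hz were Hrc, Casq2, Tnnc1, Ppargc1a, Jun, Klf2 and Klf4, with log2 changes of 0.22 to 0.72; these 7 are named in full although only the first 2 by p in each direction had been set to be named. On unscaled TPM the list had 1 higher and 3 lower at both frequencies. All 13422 genes on that scale gave 481 higher and 2933 lower at 1 Hz, and 782 and 4818 at 4 Hz. The MEF2 element described above was found in the promoter windows of 4 of the 17 targets that matched the table, Srpk3, Jun, Klf2 and Casq2. Among 27025 genes 3.70% held it. Since the list was made of known MEF2 targets, these matches are a description of the letters only. Srpk3 changed by 0.05 and 0.01 and did not pass.

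Genes of the pathway in which class IIa deacetylases repress Dach2 and so release Myog and the acetylcholine receptor genes after denervation gave counts of calls that changed with the scale. Of 8 listed, 6 were tested, with 0 higher and 2 lower at 1 Hz and 0 higher and 1 lower at 4 Hz with edgeR, and medians of -0.18 and 0.00. For all genes the shares were 19.2% higher and 18.1% lower at 1 Hz, and 27.5% and 23.9% at 4 Hz. On unscaled TPM 5 were lower at 1 Hz and 4 at 4 Hz, on TMM-scaled TPM 4 and 1 were lower, and 0 were higher on either. Of 13422 genes on unscaled TPM, 2933 were lower and 481 higher at 1 Hz, and 4818 and 782 at 4 Hz. With TMM scaling of the TPM, 2190 were lower and 1552 higher at 1 Hz, and 3029 and 2654 at 4 Hz. Besides Myog, Chrnd was lower at 1 Hz, at -0.39 (adjusted p = 7.82e-04). Dach2 and Chrne did not pass the filter on low counts. Mef2b changed by -0.08 at 1 Hz and 0.19 at 4 Hz and did not pass.

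**Figure D5:**
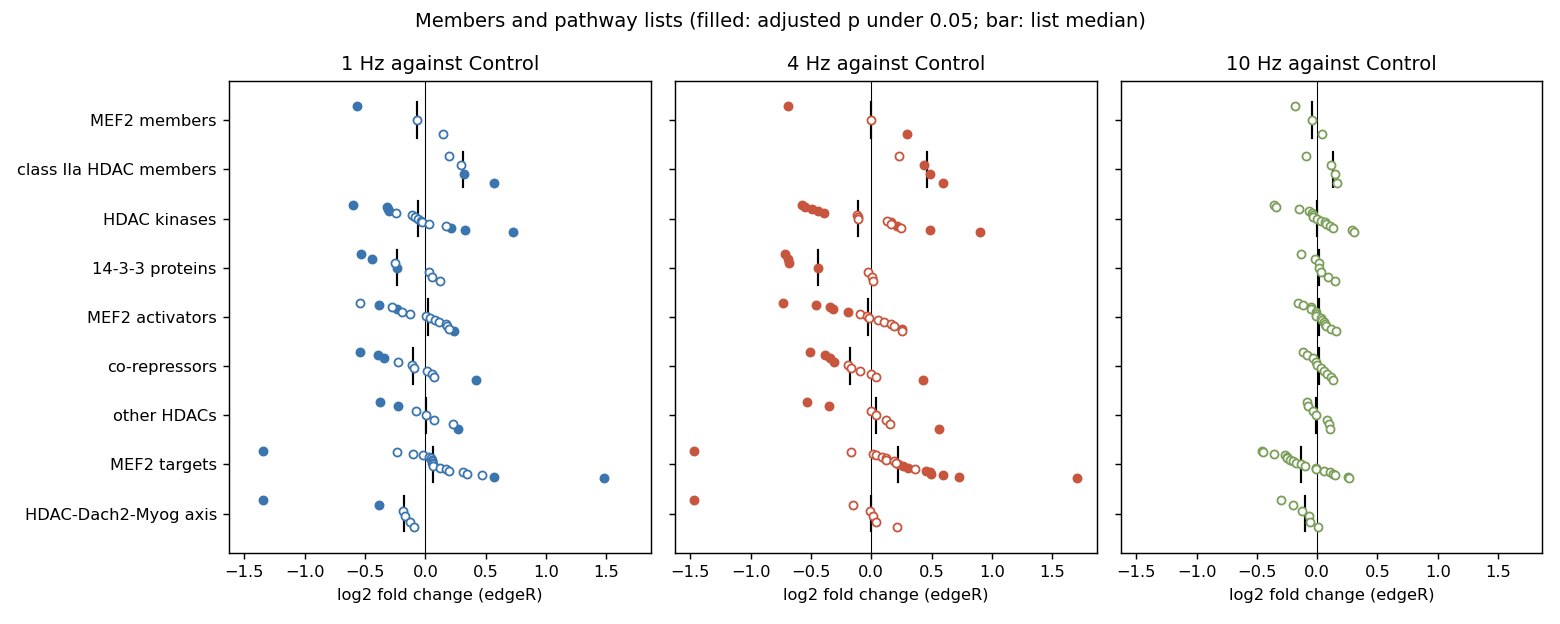
Log2 fold change against Control (edgeR) of every tested gene of the members and of each list, at 1, 4 and 10 Hz; filled points have an adjusted p under 0.05 and the vertical bar is the list median. At 1 and 4 Hz the class IIa deacetylases lie to the right of 0 on this scale and the 14-3-3 proteins that passed to the left. On unscaled log2(TPM + 1), Hdac4 and Hdac7 turn to -0.11 and -0.03 at 1 Hz. At 10 Hz Hdac7 lies to the left of 0 (-0.095) and no point is filled.

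The genes whose pattern over the 24 libraries was most like that of a member were found by the root mean square (RMS) difference of their centred log2 CPM, a measure that also reads shared depth and library make-up and is given as a description. For Mef2a these were B4galt6 (0.0947), Cdv3 (0.1005) and Atp13a3 (0.104), where the median over all genes was 0.436. For Mef2c they were Sspn, a member of the dystrophin complex, at 0.127, the calcium-binding protein Casq2 at 0.133 and Tsga10 at 0.147 (median 0.365). Hdac5 was closest to Ulk1, the kinase that starts autophagy, at 0.0822, and to Trip10 (0.0836) and Ctdsp2 (0.0859), with a median of 0.341. The nearest genes of Hdac7 (Spsb1, Loxl3 and Atxn7l2, 0.172 to 0.184) and of Hdac9 (Lin52, Kdm6a and Rab33b, 0.162 to 0.171) were farther away. No member was among the nearest genes of another.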

How the data were processed

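Bulk RNA was sequenced from 24 libraries, 6 in each of 4 groups. The authors ran nf-core/rnaseq against GRCm39 with Ensembl annotation and deposited Salmon's estimated counts per gene, in which 6.15% of the values were not whole, and TPM per gene, which scale each library to its own total per transcript length. Groups were taken from the sample titles. The estimated counts were rounded, filtered with filterByExpr, scaled by TMM and fitted with edgeR 4.0.16 (quasi-likelihood, robust) in 1 model of all libraries, with Benjamini-Hochberg adjustment over 13315 genes and a call at an adjusted p under 0.05. All 7 members passed the filter. The common biological coefficient of variation over all genes was 14.8%. CPM are TMM-scaled. The TPM and the count over TPM index, the latter on 11503 genes with at least 10 counts in every library, were tested with limma 3.58.1. DESeq2 1.42.0 (R 4.3.3), other scalings and filters, a fit of only the groups compared, a larger fold threshold and leaving out each library were alternatives. Leaving out the libraries of unusual mitochondrial share and TMM scaling of the TPM were added after seeing the data. The scripts were tested on simulated data. The members and lists were chosen with earlier results of these data known. Named were all members, up to 2 called genes per list, direction and comparison with Control by smallest p, and the 3 nearest genes of each member called against Control. Promoter windows came from a RefSeq table (GRCm38.p6) and were placed in GRCm39 by exact match. The authors' study used DESeq2 with shrunken fold changes, which were not used here. A gene that the rule for named genes selects is not reported here.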

Additional observations from a re-analysis of the deposited data

How the results depend on the processing

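Over all settings run, 19 counts of called members moved beyond 1.5 times. At 1 Hz against Control the 3 members became 1 on log2(TPM + 1) and on log2(TPM + 0.1), and 3 to 4 when 1 library was left out. At 4 Hz the 5 became 3 with no filter on low counts and on TMM-scaled TPM, 2 on both unscaled TPM scales and with a log2 change over 0.5 required, and 3 to 5 with 1 library left out. For 10 against 1 Hz the 3 became 1 with no filter, on all 3 TPM scales and with the larger change required, and 1 to 4 with 1 library left out. For 10 against 4 Hz the 5 became 2 on both unscaled TPM scales and with the larger change required. At 10 Hz against Control and at 4 against 1 Hz the count was 0 in every setting.

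Signs that turned belonged to values that had not been called against Control except those of Camk2g, Ppp3cc and Tbl1xr1, and in the other comparisons to values that had not been called except that of Hdac5 for 10 against 4 Hz. On log2(TPM + 1) and log2(TPM + 0.1) in that order, the 1 Hz values were -0.033 and -0.033 for Mef2c, -0.11 and -0.14 for Hdac4, -0.027 and -0.034 for Hdac7, -0.070 and -0.072 for Camk2g, -0.00032 and -0.00037 for Ppp3cc and -0.094 and -0.11 for Tbl1xr1, and the 4 Hz values -0.075 and -0.079 for Ppp3cc and -0.085 and -0.094 for Tbl1xr1. On the same scales Mef2d was -0.019 and -0.020 at 10 Hz against Control and -0.0020 and -0.0013 for 4 against 1 Hz, where Hdac9 was -0.037 and -0.050. For 10 against 1 Hz, Hdac4 was 0.29 and 0.34 and Hdac5 0.056 and 0.057, and for 10 against 4 Hz Hdac4 was 0.085 and 0.093 and Hdac5 0.012 and 0.012. On TMM-scaled TPM, Mef2d was -0.010 at 10 Hz and Hdac4 0.16 for 10 against 1 Hz. With upper-quartile factors Mef2d was 0.027 at 4 Hz. Without the libraries of unusual mitochondrial share, Mef2d was 0.038 at 1 Hz, 0.061 at 4 Hz, -0.010 for 10 against 1 Hz and -0.033 for 10 against 4 Hz, and Hdac4 -0.072 for 4 against 1 Hz. With 1 library left out, Mef2d ran from -0.050 to 0.013 at 4 Hz, Hdac4 from -0.039 to 0.12 and Hdac9 from -0.026 to 0.071 for 4 against 1 Hz, and Hdac4 from -0.085 to 0.053 for 10 against 1 Hz. The cause was not tested.

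Replicate numbers did not pair the libraries, since same-numbered libraries had correlations of -0.332 to 0.242, 3 of 36 pairs were over 0.1 and 0 of 24 libraries correlated best with its own number. With a replicate block 3, 5 and 0 members were called at 1, 4 and 10 Hz against Control, 0 for 4 against 1 Hz, 2 for 10 against 1 Hz and 5 for 10 against 4 Hz. Depth limits Hdac9 most, at 38 to 133 counts per library.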
